A study of Saccharomyces cerevisiae BY4741 with 4 samples.

Results

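The poly(A) RNA libraries of exponentially growing budding yeast were described on their own, as an account of which mRNAs the purified fraction held and in what amounts. The genes were chosen by name alone: every single feature of the deposited read count table whose identifier has the form of a systematic nuclear reading frame name was taken, which gave 6433 genes of 7382 features, and only the 2 poly(A) RNA columns were used. A further 622 features carry joined names, for reads where annotated genes overlap, and were kept apart. Coding lengths came from the RefSeq annotation of build R64 for 5866 of the 6433 genes. The other genes were described by counts alone.

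Both libraries were from Saccharomyces cerevisiae BY4741, a haploid laboratory strain labelled wild type. Its cells were grown in YPD, a rich medium with glucose, at 30 °C from an OD600 of 0.05 to an OD600 of 0.6, and the study labels the pair as biological replicates. RNA was bound to oligo-dT beads and rRNA that remained was removed with a depletion kit. Random hexamers primed 50-base single-end libraries. BY4741 is known to carry deletions in HIS3, LEU2, MET17 and URA3, and both libraries share that background.

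Budding yeast that grows on glucose ferments it to ethanol even in air, and keeps genes for respiration, for other sugars and for growth without glucose at low expression. Fast growth also calls for many ribosomes, and the genes for ribosomal proteins and ribosome assembly factors are known to be transcribed together. Oligo-dT captures RNA through its poly(A) tail, so the fraction consists mostly of mature mRNA.

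Replicates 1 and 2 held 52851542 and 53180654 counts over all features, and the 6433 genes held 50282436 and 50580085 of them, 95.1% ± 0.0206 (SD, n = 2). Joined features held 4.73% ± 0.0177 and other single features 0.145% ± 0.00287. Levels below are counts-per-million of the library total (CPM). Levels that compare genes are also given per length, as transcripts-per-million (TPM), which are reads per base of coding sequence scaled to the same sum in each library over the genes with a coding length. SDs are over 2 libraries.

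**Figure D1:**
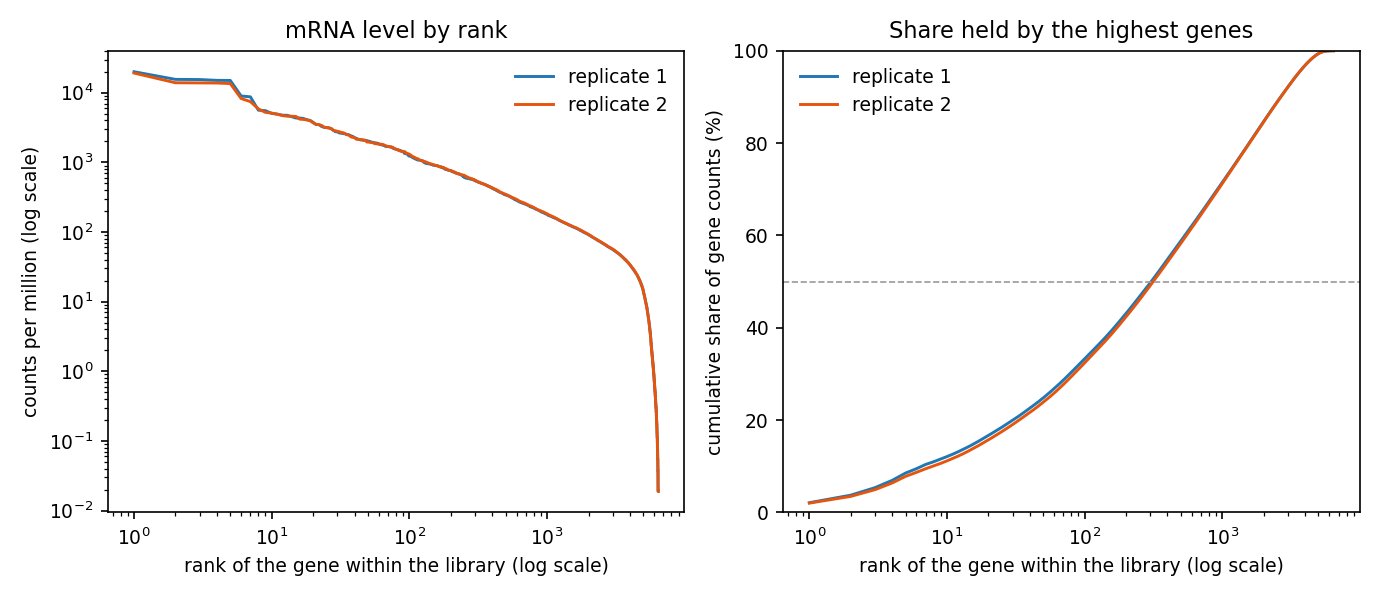
CPM of each gene against its rank in that library (left, both axes log) and cumulative share of gene counts in percent against rank (right, rank on a log axis; the dashed line marks 50%), for replicate 1 and replicate 2. The 305 highest genes of replicate 1 and the 315 highest of replicate 2 held 50% of the counts.

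The mRNA population was spread over a wide range and concentrated in few genes. The median gene had 50.7 CPM in replicate 1 and 51.2 CPM in replicate 2. The highest gene had 20031 and 19194 CPM. By mean level, 5 genes exceeded 10000 CPM and together held 8.53% of gene counts in replicate 1 and 7.81% in replicate 2. Another 127 genes lay between 1000 and 10000 CPM and held 28.4% and 28.3%, and 1717 genes between 100 and 1000 CPM held 46.2% and 47.0%. The largest class, 3349 genes between 10 and 100 CPM, was 52.1% of all genes and held 16.4% and 16.6% of counts. Below that, 732 genes lay between 1 and 10 CPM and 503 under 1 CPM.

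The 100 highest genes held 32.8% ± 0.632 of gene counts and the 1000 highest held 71.3% ± 0.177, as the rank curve shows. Per length the population was more concentrated. The 100 highest genes held 40.3% ± 0.0478 of TPM, and 163 genes held 50% in each library, against 305 and 315 genes on the count scale. The mean coding length weighted by TPM, a scale that is itself divided by length, was 883 ± 12.2 bases, against an unweighted mean of 1445 bases.

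The highest gene on both scales was FBA1, which encodes the glycolytic enzyme aldolase and lies at chrXI:326408-327487 on the minus strand. It had 1058689 counts in replicate 1 and 1020747 in replicate 2, which is 17453 and 16404 TPM. TDH3, the main gene for glyceraldehyde-3-phosphate dehydrogenase, followed with 14575 and 12779 TPM. ENO2, an enolase gene, had 11140 and 9516 TPM. On the count scale these 3 glycolytic genes were joined above 10000 CPM by TEF1 and TEF2, which encode the same translation elongation factor, eEF1A. TEF1 had 795760 and 739587 counts and TEF2 793942 and 733899. The pair share 92.5% of their 50-base stretches with other places in the genome, so the split of reads between them is uncertain. Translation elongation, the list they lead, held 4.32% of counts, and 1.12% over genes with no stretch found elsewhere.

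Short mRNAs moved up the order when length was taken into account. RPS20, a small-subunit ribosomal protein gene, had 239450 and 278045 counts and ranked 10 by CPM and 3 by TPM, at 11648 and 13186 TPM. RPS25A had 11795 and 12876 TPM. CCW12, which encodes a mannoprotein of the cell wall, had 11523 and 10769 TPM. RPS31, which encodes ubiquitin fused to a ribosomal protein, had 8752 and 9235 TPM, and CWP2, another cell wall protein gene, 7616 and 7893. The order among close neighbours was not settled by the libraries: TDH3 ranked 2 by TPM in replicate 1 and 4 in replicate 2, and 9 of the 10 highest genes were shared between libraries. All 20 of the 20 highest by CPM were shared.

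Of the 20 highest genes per length, 10 encode cytosolic ribosomal proteins, 4 glycolytic enzymes, 2 elongation factors, 2 cell wall proteins and 1 a fermentation enzyme. The remaining gene, YDR524C-B, belongs to none of the lists used here and RefSeq calls its product uncharacterized. It has a coding length of 201 bases, had 52834 and 54802 counts, and lay at 4680 and 4732 TPM. Among the 100 highest genes per length, 68 encode ribosomal proteins and 9 are in no list. Those 9, named after their values were seen, include ASC1, a component of the small ribosomal subunit, at 3922 and 3549 TPM, and BMH1, a 14-3-3 protein, at 3698 and 3533. PSA1, which makes GDP-mannose for protein glycosylation and the cell wall, had 3257 and 3458 TPM, and STM1, a ribosome-binding protein, 2458 and 2569.

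The following 4 stretches are shown because they lie before the start codons of the 2 highest glycolytic and the 2 highest ribosomal protein genes per length. They run from 250 to 101 bases before the start codon, on the gene's own strand, in build R64. Capitals mark the letters TATAAA, the core of a TATA box, and CGGGTAA, which the factor Reb1 recognises.
FBA1, chrXI:327588-327737, minus strand: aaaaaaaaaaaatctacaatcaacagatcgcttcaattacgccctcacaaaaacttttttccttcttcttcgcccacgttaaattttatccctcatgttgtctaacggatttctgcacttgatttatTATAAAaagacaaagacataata
TDH3, chrVII:883911-884060, minus strand: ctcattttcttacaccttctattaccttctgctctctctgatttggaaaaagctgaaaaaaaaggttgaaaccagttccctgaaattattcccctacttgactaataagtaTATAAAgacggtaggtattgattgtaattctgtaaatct
RPS20, chrVIII:75162-75311, plus strand: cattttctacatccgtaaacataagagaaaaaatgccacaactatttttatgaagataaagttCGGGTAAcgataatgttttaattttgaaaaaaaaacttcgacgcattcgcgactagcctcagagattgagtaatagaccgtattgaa
RPS25A, chrVII:534559-534708, minus strand: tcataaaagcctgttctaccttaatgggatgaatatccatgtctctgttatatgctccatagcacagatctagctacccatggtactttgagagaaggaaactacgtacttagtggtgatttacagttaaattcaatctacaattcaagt

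TATAAA on either strand was found in both glycolytic stretches, 123 bases before the start codon in FBA1 and 139 in TDH3, and in neither of the ribosomal protein stretches. Counts over the lists used the full 250 bases before each start codon. TATAAA was present in 14 of 17 glycolytic genes and 8 of 9 fermentation genes, but in 31 of 134 ribosomal protein genes (23.1%), against 42.6% of all 5876 genes with such a window. The letters CTTCC, to which the glycolytic activator Gcr1 binds, were present in 9 of 17 glycolytic genes and 50.0% of ribosomal protein genes, against 38.4% of all genes. CGGGTAA was present in 6 of 134 ribosomal protein genes (4.48%) and 0 of 17 glycolytic genes, against 7.16% of all genes, and RPS20 is one of the 6. CACCCA, found in Rap1 sites, was present in 15 of 134 ribosomal protein genes (11.2%) and 1 of 17 glycolytic genes, against 5.80% of all genes. These matches describe letters in a window, and binding was not measured.

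Genes for making protein and for fermenting glucose supplied a large share of the fraction. Ribosomal proteins, translation factors, aminoacyl-tRNA synthetases and ribosome assembly factors, 319 genes, held 27.4% ± 0.444 of gene counts and 38.2% ± 0.648 of TPM. Glycolysis and ethanol fermentation, 26 genes, held 10.7% ± 0.696 of counts and 8.28% ± 0.605 of TPM. The groups together made up 5.36% of the genes and held 38.1% ± 0.252 of counts and 46.5% ± 0.0430 of TPM. By contrast, the citric acid cycle and nuclear-encoded respiratory chain, 55 genes, held 0.724% ± 0.0117 of counts and 0.894% of TPM. They made up 0.855% of the genes, so both shares were close to their share of the genes.

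**Figure D2:**
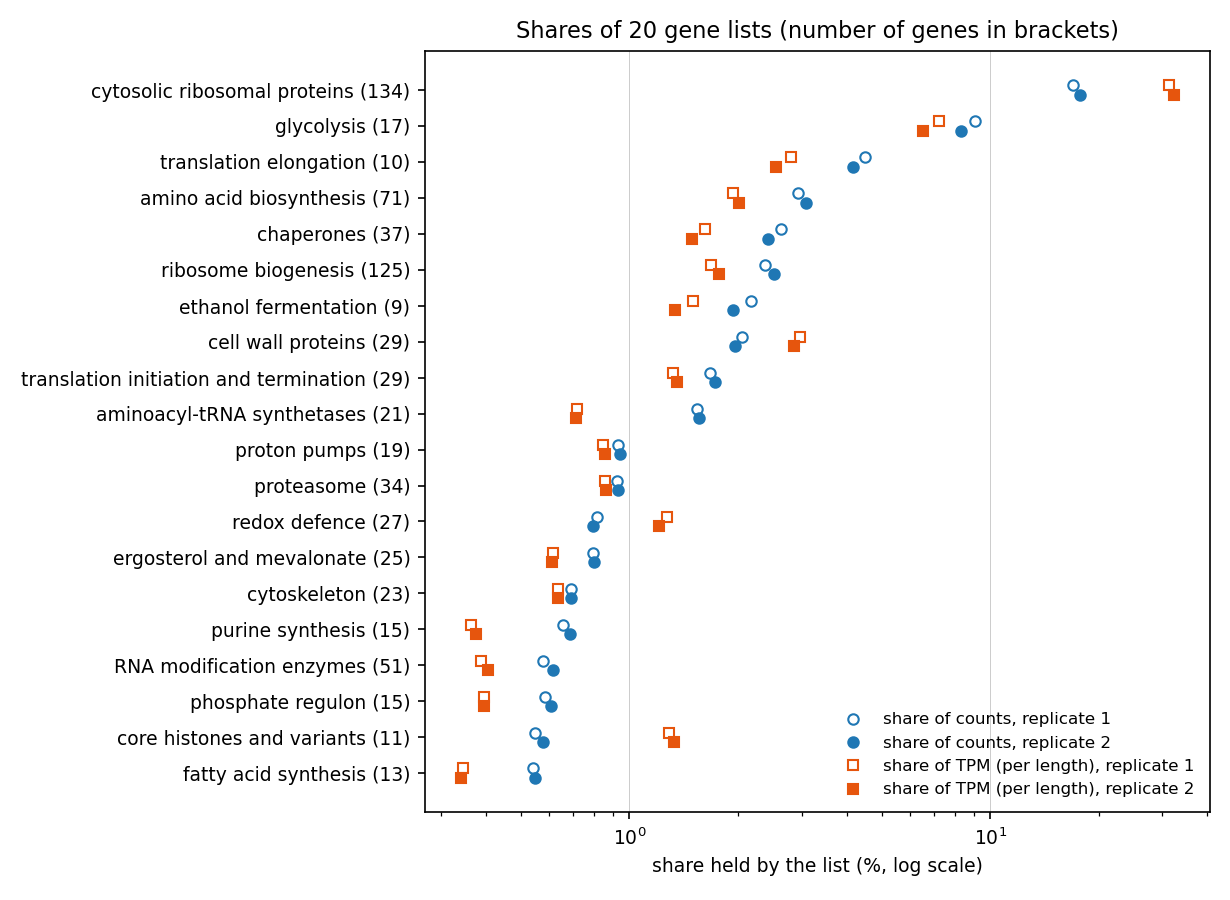
Share of gene counts (blue circles) and of TPM (orange squares) held by the 20 gene lists with most counts, in percent on a log axis; open symbols are replicate 1 and filled symbols replicate 2. Cytosolic ribosomal proteins held 17.4% of counts and 31.8% of TPM, while glycolysis held 8.69% of counts and 6.85% of TPM.

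Cytosolic ribosomal proteins were the largest list, with 17.4% ± 0.522 of counts and 31.8% ± 0.750 of TPM in 134 genes, and 11.1% of counts over genes with no stretch found elsewhere. Their coding sequences are short, with a median of 435 bases against 1188 over all genes with a length. Small-subunit genes numbered 56 and held 8.33% ± 0.344 of counts, large-subunit genes numbered 73 and held 8.24% ± 0.163, and the 5 genes of the stalk, which recruits elongation factors, held 0.784% ± 0.0146. Of the 134, 128 were at or above 100 CPM. The level at the 90th percentile was 5.41 times that at the 10th, against 39.1 times over all genes with a coding length and reads.

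Most ribosomal proteins of yeast are encoded by a pair of duplicated genes, A and B, and both copies had a line here for 55 proteins. The A copy was higher per length in both libraries for 32 pairs and the B copy for 22. The median difference was 1.52-fold, and 19 pairs differed by more than 2-fold. In 6 pairs, among them RPL36, RPL33 and RPL7, a copy also has reads in joined features that these values leave out. Over the other 49 pairs, a count chosen after the data were seen, the A copy was higher for 29 and the B copy for 19, with a median difference of 1.49-fold and 16 pairs above 2-fold. RPS25A had 11795 and 12876 TPM against 725 and 668 for RPS25B, and the pair share no 50-base stretch. RPS28A had 4459 and 5407 TPM against 298 and 331 for RPS28B. The B copy was far higher for RPS9, at 3184 and 3550 TPM against 390 and 417 for RPS9A. In 40 of the 55 pairs at least 1 copy has stretches found elsewhere, so smaller ratios depend on how such reads were assigned. These pairs were picked after their values were seen.

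A few ribosomal protein genes had many more counts in joined features than alone. RPL36B, the lowest, had 113 and 109 counts of its own, while 25016 and 24773 counts lay in features that join its name with another. RPL33A had 10165 and 10674 counts alone and 223850 and 251340 joined. RPL28 had 3798 and 3769 alone and 69164 and 76374 joined. Across all genes, 978 are named in a joined feature and 472 of them had more counts there than alone in both libraries. To which of the overlapping genes the joined reads belong was not tested, so single-feature levels of these genes may be too low.

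Glycolysis held 8.69% ± 0.535 of counts in 17 genes, which is 32.9 times its share of the genes. The mRNAs were not equally abundant along the pathway, which is given here in order, with genes beyond those the naming rule chose. At the entry, the hexokinase gene HXK2 had 1776 and 1575 TPM, PGI1, for glucose phosphate isomerase, 1326 and 1175, and the phosphofructokinase subunit genes PFK1 and PFK2 302 and 265, and 293 and 264. Aldolase FBA1, at the cleavage step, was then 59.7 times PFK1 on the mean TPM scale.
The steps below the cleavage were all represented by at least 1 abundant gene. TPI1, for triose phosphate isomerase, had 4012 and 3895 TPM, and PGK1, for phosphoglycerate kinase, 3799 and 3396. GPM1, for phosphoglycerate mutase, had 4399 and 4354. Its paralog GPM2, with 769 and 832 counts, is not in the glycolysis list. CDC19, the main pyruvate kinase gene, had 2712 and 2438 TPM from its own reads, but 508608 and 488408 counts lay in joined features against 228931 and 211145 alone. With joined reads added, CDC19 moved from rank 18 to 6 by CPM and GPM1 from rank 21 to 10.

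Ethanol fermentation held 2.05% ± 0.161 of counts in 9 genes and was carried by a pair of them. PDC1, for pyruvate decarboxylase, had 474525 and 396546 counts, and ADH1, the main fermentative alcohol dehydrogenase, 461651 and 439305. Other forms of these enzymes were lower, by unequal amounts. ADH3, an alcohol dehydrogenase gene of the same list, had 88488 and 87647 counts. PDC5 had 4742 and 3743 counts and PDC6 88 and 97. ADH2, the enzyme that oxidises ethanol and is repressed by glucose, had 51197 and 48523 counts, 76.1% of all counts of the gluconeogenesis and glyoxylate list. ADH2 shares 14.0% of its 50-base stretches with other places, ADH1 among the candidates, and the part of shared reads in its count was not tested. Over genes with no 50-base stretch found elsewhere, which leaves out ADH1 and ADH2, with 14.0% each, and PDC1, with 0.974%, fermentation held 0.377% of counts and the gluconeogenesis list 0.0407%.

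Some duplicated genes outside the ribosome also had a dominant and a minor copy. PMA1, the plasma membrane proton pump, was 86.5 ± 2.35 times PMA2 per length. YEF3, a translation elongation factor of fungi, had 1300 and 1219 TPM against 4.59 and 4.25 for HEF3, a ratio of 285 ± 2.78. CDC19 was 79.7 ± 9.27 times PYK2 from single-feature reads. With its joined reads added, an alternative chosen after the data were seen, the ratio was 236 in replicate 1 and 286 in replicate 2. Other pairs were closer. HSC82, a constitutive Hsp90 gene, was 7.27 ± 0.716 times the heat-inducible HSP82. COX5A, the aerobic form of a cytochrome oxidase subunit, was 1.59 ± 0.0119 times COX5B, the hypoxic form. The actual ratio is uncertain where copies share sequence, as for the elongation factor genes EFT1 and EFT2, which share 91.9% and had 784 and 695 TPM, and 806 and 717.

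Lists of intermediate level included the proteasome, whose 34 genes were tightly grouped, with a median of 235 TPM and a 90th percentile 3.36 times the 10th. Aminoacyl-tRNA synthetases, which load amino acids onto tRNA, ranged from 257 to 1504 CPM in 21 genes, with a ratio of 3.30 per length. Mitochondrial ribosomal proteins lay lower and were as tightly grouped, with a median of 84.7 TPM in 77 genes and a ratio of 3.43. The same ratio was 236 for translation elongation, 234 for hexose transporters, 145 for ethanol fermentation and 131 for cell wall proteins. It was 29.3 for gluconeogenesis and the glyoxylate cycle and 15.6 for the galactose pathway. Such a ratio describes these cells and sets no list apart by a test.

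Genes for biosynthesis were expressed in YPD, a medium that supplies amino acids and bases. Amino acid biosynthesis held 3.01% ± 0.109 of counts in 71 genes, with a median of 267 CPM. HIS1, the first enzyme of histidine synthesis, was its highest gene, with 82502 and 103016 counts, and ARG3 was lowest at 4.89 CPM. Purine synthesis had a median of 462 CPM in 15 genes. The phosphate regulon is the set of genes that Pho4 activates when phosphate is scarce. The list used for it also holds PHO4 itself, its lowest gene at 26.6 CPM. That list had a median of 383 CPM in 15 genes. PHO84, the high-affinity phosphate transporter, had 43792 and 45487 counts. The acid phosphatase genes PHO11 and PHO12 had 29829 and 30939, and 35014 and 36763 counts, and share 88.3% and 87.2% of their stretches with other places.

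Chaperones held 2.52% ± 0.148 of counts in 37 genes, led by HSC82 with 160950 and 141847 counts. Redox defence genes held 0.803% ± 0.0167 of counts, with the peroxiredoxin TSA1 at 2290 and 2061 TPM and the superoxide dismutase SOD1 at 2495 and 2375. Core histones and variants held 0.561% ± 0.0203 of counts and 1.31% ± 0.0270 of TPM in 11 genes. Among them the gene pairs differed, with HHT2 at 2983 and 3256 TPM and HHT1 at 1002 and 1038 for the same histone H3. Over genes with no stretch found elsewhere the histone list held 0.168% of counts. Histone mRNAs are short and are made mainly in S phase, and phases were not separated here.

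**Figure D3:**
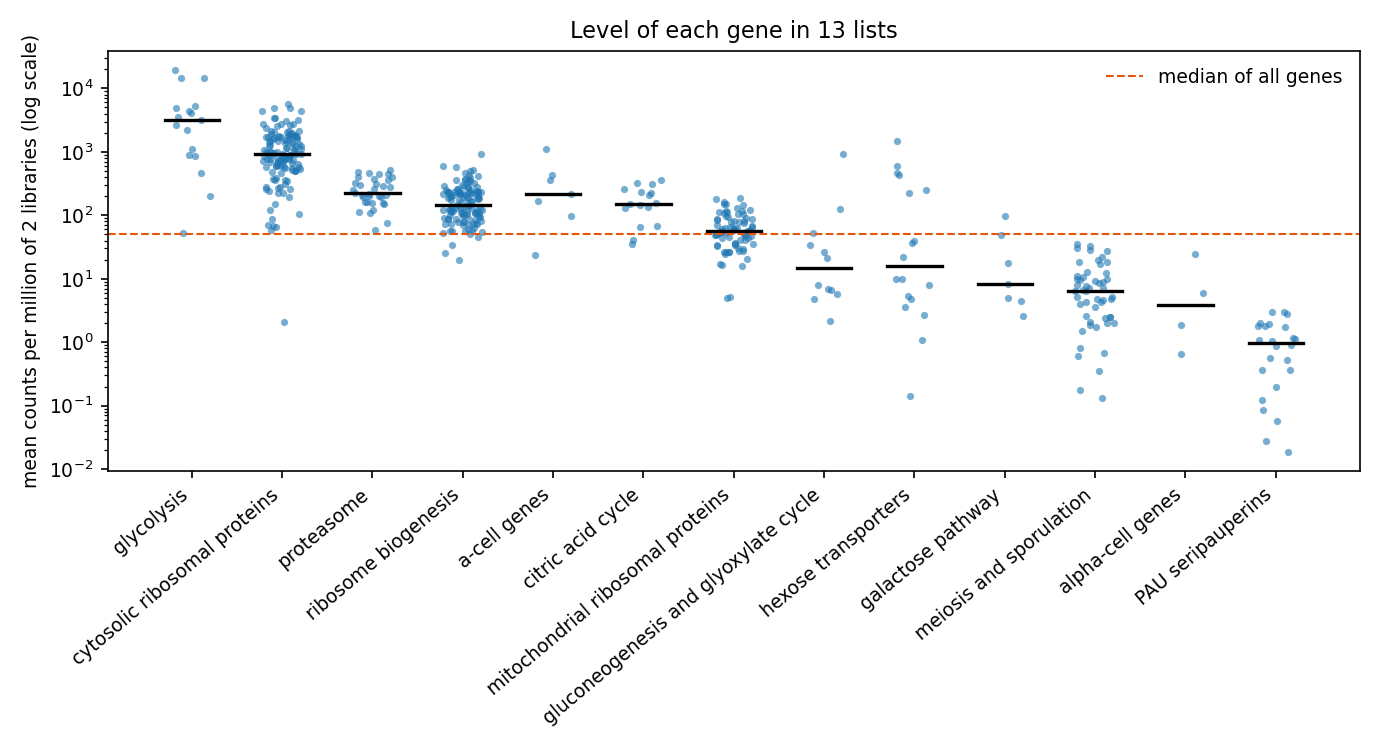
Mean CPM of the 2 libraries for each gene in 13 lists, on a log axis; each point is a gene, the black bar is the list median and the dashed line the median of all 6433 genes (51.4 CPM). Genes of the glycolysis and ribosomal protein lists lie above the median of all genes, except for RPL36B. Those of the alpha-cell and PAU lists lie below it.

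Genes of respiration had lower medians than glycolysis, whose median was 3168 CPM. The 16 citric acid cycle genes ranged from 35.4 CPM for SDH4, a succinate dehydrogenase subunit, to 362 CPM for FUM1, fumarase, with a median of 152 CPM. The 39 nuclear-encoded genes of oxidative phosphorylation had a median of 57.8 CPM, close to the 51.4 CPM of all genes, and 3 of them were under 10 CPM. Over all 6433 genes, 7.82% lay under 1 CPM and a further 11.4% from 1 to 10 CPM. These shares are the background for the list counts under 10 CPM here and below. Of the 39 genes, ATP2, the beta subunit of the ATP synthase, was highest with 34262 and 32087 counts. CYC1, cytochrome c, had 1927 and 1972 counts, and its hypoxic form CYC7 had 513 and 429.

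Genes that glucose represses lay at very unequal levels. In the gluconeogenesis and glyoxylate list 6 of 12 genes were under 10 CPM, while ADH2, described above, was at 941 CPM and MDH2, the cytosolic malate dehydrogenase, had 7104 and 6408 counts. PCK1, the key enzyme of gluconeogenesis, had 356 and 339 counts, FBP1, fructose-1,6-bisphosphatase, 461 and 399, and MLS1, malate synthase of the glyoxylate cycle, 318 and 302. ICL1, isocitrate lyase, had 2877 and 2675 counts, or 52.4 CPM, close to the median of all genes. The galactose enzymes GAL1, GAL7 and GAL10 had 206 and 275, 133 and 143, and 996 and 877 counts. The regulator genes GAL80 and GAL4 were higher, with 5360 and 5073, and 2610 and 2655 counts. GAL80 alone held 52.9% of the counts of the 7 galactose genes. Of these 7 genes, 4 were under 10 CPM, so the other members of the list were low as well.

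Hexose transporters held 0.381% ± 0.0531 of counts in 18 genes, and HXT3, a low-affinity transporter, held 41.5% of that with 83534 and 75876 counts. HXT2, a high-affinity transporter, had 38342 and 25269 counts, and HXT1, induced by high glucose, 13742 and 12523. HXT6 and HXT7 share 95.1% of their stretches and had 25794 and 20312, and 27873 and 21817 counts. The other end of the list, 9 genes, was under 10 CPM. Over genes with no stretch found elsewhere the list held 0.0925% of counts.

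Cell-type genes matched a haploid of mating type a, the type of BY4741. All 7 a-cell genes were measured, from 23.8 CPM for ASG7 to 1127 CPM for STE2, the receptor for alpha-factor. MFA1 and MFA2, which encode the pheromone a-factor, had 776 and 851, and 1278 and 1401 TPM. The alpha-cell genes were near the bottom: MF(ALPHA)1, the main alpha-factor gene, had 31 and 37 counts, MF(ALPHA)2 96 and 103, and STE3, the receptor for a-factor, 302 and 326. SAG1, the alpha-agglutinin, was the exception with 1287 and 1309 counts, or 11.7 and 11.6 TPM. At 24.5 CPM it lay just above the a-cell gene ASG7, so the 2 sets overlapped on the count scale. Per length they did not, since the lowest a-cell gene was at 35.2 TPM. In bulk RNA, fewer cells that express a gene and less RNA per cell cannot be told apart.

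Meiosis and sporulation genes, which haploid cells in rich medium do not need, held 0.0491% ± 0.000176 of counts in 52 genes with a median of 6.44 CPM, and 37 of them were under 10 CPM. The highest were GAS2 with 1942 and 1853 counts and REC107 with 1801 and 1714. IME1, the master activator of meiosis, had 500 and 478 counts, and IME2, the kinase below it, 1115 and 866. The 24 PAU genes, a subtelomeric family induced without oxygen, were all under 10 CPM, and 10 of them were under 1 CPM. In that family 23 genes share stretches with other places, so reads of single members are uncertain. FLO11, the lowest of 5 flocculin genes, had 155 and 178 counts, or 3.14 CPM. The median of the 5 was 12.7 CPM and the highest, FLO9, was at 22.8 CPM. All 5 share stretches with other places.

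HIS3 had 4686 and 5481 counts, 95.9 ± 10.2 CPM. The count does not show which bases of HIS3 its reads cover, so it is no check of the deletion. LEU2, MET17 and URA3 had no single line and were not analysed here.

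Few genes were silent. In single features, neither library had a read for 6 of the 6433 genes. Over both libraries 47 had at most 3 counts, a floor that corresponds to 0.0283 CPM and covers counting error only. Just inside that limit 11 genes had 3 counts and just outside 13 had 4. Of the 6 without single-feature reads, 4 are copies of a reading frame of 132 bases on chromosome XII. These are YLR154C-H, YLR156C-A, YLR157C-C and YLR159C-A, whose 50-base stretches are all found elsewhere in the genome. In joined features YLR154C-H had 1 and 0 counts, YLR156C-A 0 and 3, YLR157C-C 2 and 1, and YLR159C-A none. YPR159C-A, of 102 bases on chromosome XVI, shares no stretch and had no joined reads either. YLR154W-E has no RefSeq entry and had 511 and 434 joined counts.

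Most of the 47 have no gene name. No RefSeq entry was found for 27, and a further 16 are called uncharacterized. Shared stretches were computed only for the 20 with an entry, and 9 of these 20 share stretches with other places. Of the 47, 19 had reads in joined features. Among all genes, this class held 4.86% of the 556 without an entry and 0.340% of the 5877 with one. It held 2.87% of the 558 called uncharacterized and 0.0565% of the 5308 with a named product. It held 2.35% of the 978 named in a joined feature and 0.440% of the 5455 in none. Only 3 of the 47 had a gene name: PAU16, PAU19 and GAT3, which encodes a zinc finger protein of the GATA family and had 1 and 2 counts. These were named after their counts were seen.

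A wider class of 480 genes lay under 1 CPM in both libraries. It held 3.86% of the 5877 genes with a RefSeq entry and 45.5% of the 556 without. Among genes called uncharacterized the share was 27.4%, against 1.32% of genes with a named product. Among coding lengths under 300 bases it was 31.6%, against 2.32% of longer ones. Low levels were more frequent close to chromosome ends: 24.6% of 122 genes within 10 kb of an end were under 1 CPM, with a median of 5.90 CPM, and 9.38% of 128 genes from 10 to 20 kb. At 100 kb or more from an end it was 3.36% of 4405 genes, with a median of 60.9 CPM. Length, annotation, shared sequence and position overlap in these genes, and their separate parts were not tested.

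Abundant mRNAs used a narrow set of codons. Preferred codons are those that highly expressed yeast genes are known to favour, 23 codons in the set used here. A gene's value is the percentage of its codons with a choice that are in the set. Because the set is defined by highly expressed genes, a high value among abundant mRNAs is partly given by that choice. The median was 44.0% in the lowest decile of genes by TPM, 45.0% in decile 5 and 68.1% in the highest, and 89.8% in the 100 highest genes. Without ribosomal proteins the 100 highest genes had 81.6%. Across 5866 genes Spearman's rho between TPM and preferred codons was 0.48, a description across genes that share libraries and base composition.

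**Figure D4:**
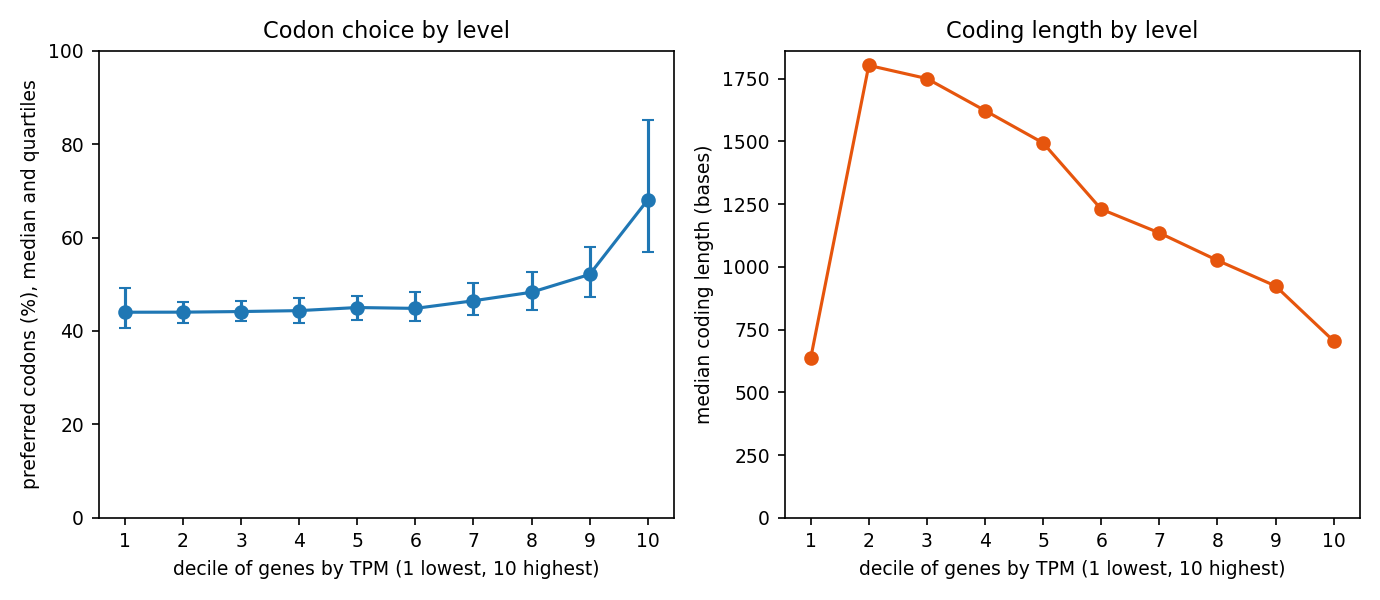
Percentage of preferred codons, median with quartiles (left), and median coding length in bases (right), for deciles of the 5866 genes ordered by TPM, from 1 (lowest) to 10. Preferred codons lie at 44.0% in the lowest decile, 45.0% in decile 5 and 68.1% in the highest, while length peaks in decile 2 at 1803 bases and falls to 705.

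The shift was visible in single amino acids. AGA supplied 42.0% of arginine codons in the lowest decile, 68.5% in the highest and 83.8% in the 100 highest genes. For TTG among leucine codons the values were 26.1%, 49.0% and 76.6%, and for GGT among glycine codons 41.5%, 73.8% and 95.0%. Summed over the mRNA population, preferred codons averaged 72.8% ± 0.146 when genes were weighted by TPM, against 49.2% unweighted.

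Gene copies with near-opposite levels show the contrast in sequence. The first 40 codons of the abundant and the minor copy are given from the start codon, with preferred codons in capitals, for pyruvate kinase and for the elongation factor eEF3.
CDC19, chrI:71786-71905, plus strand: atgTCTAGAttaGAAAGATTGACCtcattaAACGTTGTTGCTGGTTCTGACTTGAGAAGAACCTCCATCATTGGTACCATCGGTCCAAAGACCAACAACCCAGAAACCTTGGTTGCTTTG
PYK2, chrXV:986343-986462, minus strand: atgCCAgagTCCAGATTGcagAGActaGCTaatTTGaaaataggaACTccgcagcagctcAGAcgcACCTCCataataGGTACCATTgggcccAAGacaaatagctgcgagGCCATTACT
YEF3, chrXII:636780-636899, plus strand: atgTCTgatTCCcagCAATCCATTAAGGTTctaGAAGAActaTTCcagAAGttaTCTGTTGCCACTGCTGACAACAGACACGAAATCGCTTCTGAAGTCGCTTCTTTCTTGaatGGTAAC
HEF3, chrXIV:606319-606438, plus strand: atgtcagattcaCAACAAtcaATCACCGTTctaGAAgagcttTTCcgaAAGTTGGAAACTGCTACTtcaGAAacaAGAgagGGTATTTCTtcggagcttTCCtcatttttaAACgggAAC

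With the start codon counted among the 40, preferred codons numbered 36 of 40 in CDC19 and 18 of 40 in PYK2, and 32 of 40 in YEF3 and 21 of 40 in HEF3. Over the whole coding sequence, CDC19 had 95.5% and PYK2 50.6%, and YEF3 90.3% and HEF3 50.8%. The relation had exceptions. PDC5 had 88.2% at 49.9 and 38.4 TPM, ANB1, a hypoxic form of the translation factor eIF5A, 85.9% at 47.0 and 44.1 TPM, and PAU genes a median of 87.6% at a median of 2.76 TPM. STE2, in contrast, had 45.8% at 789 and 831 TPM, and HIS1 had 53.4% at 1643 and 2000 TPM.

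Introns, which are rare in yeast, were more frequent among abundant mRNAs. Of the 5866 genes, 269 have more than 1 coding exon, 4.59%, but 18.2% of the highest decile and 41 of the 100 highest do. These 269 genes supplied 19.5% ± 0.244 of TPM, and 86 of them encode ribosomal proteins. Among the 100 highest genes without ribosomal proteins 5 have an intron. The relation of level with coding length depended on the scale: Spearman's rho was -0.21 between TPM, which is itself divided by length, and length, and 0.26 between CPM and length.

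The libraries gave nearly the same levels. Over 6224 genes with at least 10 counts in both, Pearson's r of log2 CPM was 0.998 and Spearman's rho 0.997, across genes within one pair of libraries. The SD of the log2 ratio of replicate 2 over replicate 1 was 0.88 under 1 CPM, 0.22 from 1 to 10 CPM, 0.13 from 10 to 100 CPM and 0.12 at higher levels. Counting error alone at the median gene of these classes would give 0.50, 0.14, 0.042, 0.021 and 0.0067 from the lowest class up. The common dispersion was 0.00364, a biological coefficient of variation of 0.0603.

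**Figure D5:**
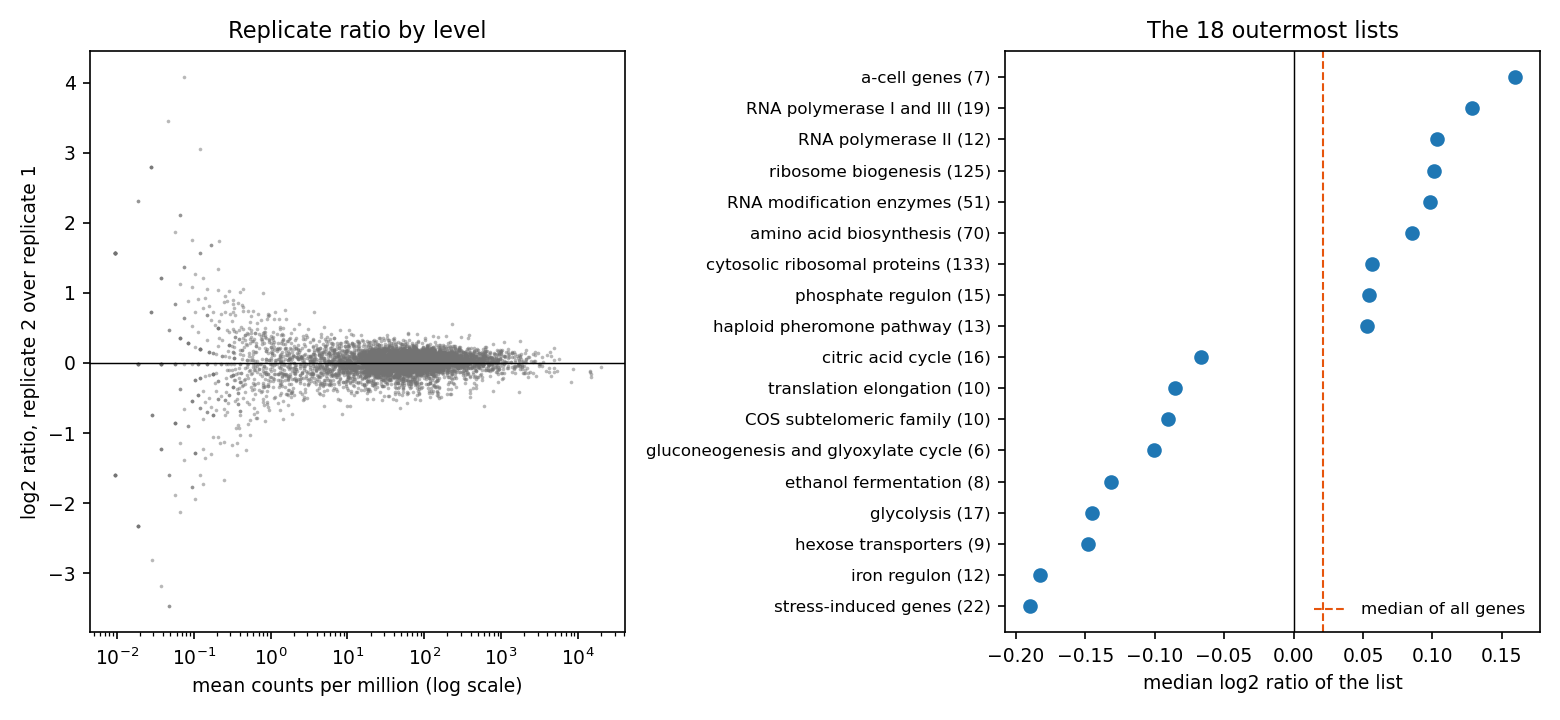
Log2 ratio of replicate 2 over replicate 1 for each gene against its mean CPM on a log axis (left; 0.5 added to each count), and median log2 ratio of the 9 lowest and 9 highest lists among genes of at least 10 mean CPM, with the number of genes in brackets (right). Glycolysis, stress and iron lists lie on the lower side. The a-cell, RNA polymerase and ribosome biogenesis lists lie on the higher side, with the a-cell genes outermost.

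Of 5198 genes with a mean of at least 10 CPM, 4 (0.077%) differed by more than 1.5-fold, all lower in replicate 2. They were BTN2, which handles misfolded proteins, with 3097 and 2001 counts, YJL107C with 694 and 455, YMR085W with 640 and 420, and the glucose transporter gene HXT2 with 38342 and 25269, a log2 ratio of -0.61. Next in size were SSE2, an Hsp110 chaperone gene, with 3819 and 2584 counts, and ARG1, of arginine synthesis, with 9938 and 14707.

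Smaller differences ran through whole lists. Ratios here are CPM of replicate 2 over replicate 1, and of all 5198 genes of at least 10 mean CPM, 57.4% were higher in replicate 2, with a median log2 ratio of 0.02. Ribosome biogenesis was higher in replicate 2 for 114 of 125 genes, with a median of 0.10. RNA polymerases I and III were higher for 18 of 19, with a median of 0.13, and RNA modification enzymes for 43 of 51. All 7 a-cell genes were higher, with a median of 0.16, the highest of the lists. Glycolysis was lower in 16 of 17 genes, with a median of -0.15, and all 10 elongation genes and all 12 iron regulon genes of at least 10 CPM were lower. Stress-induced genes were lower in 18 of 22, with a median of -0.19. The share of genes higher in replicate 2 also varied with coding length, from 75.1% in the shortest quintile to 42.9% in quintile 4, and the part of length in the list values was not tested. The replicates are 1 group, so these are differences between 2 libraries and carry no test. Culture and library preparation cannot be told apart.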

How the data were processed

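Poly(A) RNA was sequenced in 2 libraries. The deposited values are unnormalised counts of reads by feature, as the file headers and values show. Build R64 and the tools Bowtie2 2.3.4.3, cutadapt 1.18 and FastQC 0.11.8 appear in the submitters' processing notes. How reads were counted, and whether strand was used, is not given in the sources used here, so reads of overlapping, antisense and near-identical genes are uncertain. Features with joined names hold reads of overlapping genes. The table has 5 empty lines.

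CPM used the library total over all features, and TPM used the RefSeq coding length without introns. Shares of lists are of the counts of the 6433 genes. For each gene with a RefSeq entry, the share of its 50-base stretches found elsewhere in the genome, on either strand, was computed. Stretches were taken from the start to the end of the gene, introns included. For genes with introns the share is therefore not that of the coding sequence alone. Motifs were searched on both strands in the 250 bases before the start codon. The dispersion came from edgeR 4.0.16 (R 4.3.3) with TMM normalisation and was tested on simulated counts, and DESeq2 1.42.0 gave alternative size factors. Other values used Python 3.11.15 and pandas 2.3.3. The depth puts the floor of 3 counts at 0.0568 and 0.0564 CPM in replicates 1 and 2, and floors cover counting error only, because amplified reads carry no molecular identifiers.

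The 2 libraries are 1 group, so no test was made. Genes and 41 lists were chosen with earlier results of these data known. The text names the 20 highest genes by TPM and 10 by CPM, up to 4 of each list by CPM, every member of short lists of repressed or cell-type genes, paralog pairs, the 6 largest replicate differences at 10 CPM or more, and the lowest glycolytic and ribosomal protein gene, with exceptions marked. Sequences are from the RefSeq genome of build R64. Alternatives were the scale, joined reads, genes with no shared stretch, the denominator, the count limits, the scaling and single libraries.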

Additional observations from a re-analysis of the deposited data

How the results depend on the processing

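The number of genes that hold 50% of counts was 310, and 163 per length. The share of the 100 highest genes was 32.8%, 40.3% per length, 34.1% with joined reads added and 27.4% over genes with no shared stretch. Under the same 3 alternatives glycolysis, at 8.69%, held 6.85%, 9.46% and 5.86%. Cytosolic ribosomal proteins, at 17.4%, held 31.8% per length, 11.1% over genes with no shared stretch and 16.5% of the library total. Of the 47 genes with at most 3 counts, 6 had none, 20 had a RefSeq entry and 28 had at most 3 with joined reads added, while 480 lay under 1 CPM. The rank correlation of level with preferred codons was 0.48 per length, 0.51 by CPM and 0.50 over genes with no shared stretch. The SD of the log2 replicate ratio, 0.20 for genes with at least 10 counts in either library, was 0.28 with no filter and 0.14 at 100 counts or more, and was the same under all 3 scalings. With 1 library left out, 305 to 315 genes held 50% of counts, the 100 highest held 32.4% to 33.3%, glycolysis 8.31% to 9.07% and ribosomal proteins 17.0% to 17.7%, and 87 to 90 genes had at most 3 counts. Of the other 39 lists, 39 moved by more than 1 SD per length, 37 over genes with no shared stretch, 32 with joined reads and 29 over the library total. The causes were not tested beyond what each alternative changes by construction. No paired analysis was possible because the results come from no test and 1 group. With 2 libraries an SD has 1 degree of freedom, and shallow genes under 1 CPM are limited by counting.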
